A study of Mus musculus with 6 samples.

Results

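Respiratory complex I is the NADH dehydrogenase of the mitochondrial inner membrane, and its nuclear-encoded subunits were followed here in mouse cerebellum RNA. The 36 members were selected on their names and read counts. They are the genes in the authors' deposited table whose symbol is Nduf, then a, b, c, s or v, then a number, with 10 or more reads in at least 3 of 6 libraries. All 36 symbols that fit the name passed, of 46775 genes in that table, and each passed in 6 of 6 libraries. The lowest read count of any member in any library was 41, for Ndufs5, and no symbol that fit the name was left below the threshold. All 36 are annotated as protein-coding, and 11 carry the letter s or v and 25 the letter a, b or c.

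Complex I takes electrons from NADH in its matrix arm, passes them along iron-sulfur clusters to ubiquinone, and pumps protons through its membrane arm. A catalytic core shared with bacteria does this work, and its parts come from both nuclear and mitochondrial genes. Accessory subunits, which surround the core, serve in assembly and stability. Neurons of the cerebellum, above all Purkinje cells, depend on respiration for firing, and mutations in many of these genes cause Leigh syndrome, in which the brainstem and cerebellum can be affected. The letters follow how the subunits were first named, so 4 of the s and v genes (Ndufs4, Ndufs5, Ndufs6 and Ndufv3) are accessory. Ndufa4, named as a complex I gene, is now known as a subunit of complex IV.

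Each of 6 C57BL/6J mice at postnatal day 60 gave 1 stranded RNA library from its cerebellum. All 6 animals carried Tie2-Cre, a recombinase expressed in endothelial and blood lineages. The 3 animals labelled WT were Slc7a5 fl/+ and so had a floxed allele too, and the 3 labelled Slc7a5-KO were Slc7a5 fl/fl. Slc7a5 encodes the amino acid transporter LAT1, and the deletion is limited to cells in which Tie2-Cre was active, a small part of the tissue. In CPM, counts per M (mega) of gene reads, Slc7a5 was measured at 72.0, 66.3 and 43.2 in WT replicates 1 to 3 and at 164, 59.4 and 118 in Slc7a5-KO replicates 1 to 3. The groups overlapped, with the higher mean in the libraries labelled Slc7a5-KO (log2 fold change 0.91 ± 0.42, edgeR adjusted p = 0.84), so directions below follow the labels and not a loss of Slc7a5 measured here.

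Depth was 13.4 to 34.2 M gene reads per library, lowest in Slc7a5-KO replicate 3. By Xist and Y-linked genes, WT replicate 2 and Slc7a5-KO replicates 1 and 3 were female and the others male. Markers of granule neurons and Purkinje cells were present in all 6 libraries. WT replicate 2 stood apart for the complex I genes, as described below, so results are also given without it. Fold changes are Slc7a5-KO over WT on the log2 scale with standard errors, CPM values are means ± SD where a mean is given, and n = 3 animals per group throughout.

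No complex I subunit gene passed the test at a false discovery rate of 0.05. Across all genes 0.0475% passed, that is 8 of 16851 tested, all of them higher and none a member. Of the 36 members, 31 had a log2 fold change below 0 in the libraries labelled Slc7a5-KO, where 49.7% of all genes lay below 0. The median of the members was -0.21 and that of all genes 0.0022. An unadjusted edgeR p under 0.05 was reached by 7 members with lower values, against 2.77% of all genes, and by 0 members with higher values, against 3.45% of all genes. In 4 members every animal labelled Slc7a5-KO lay below every WT animal (5.54% of all genes), and 0 members separated the other way (5.93%). The members were chosen with earlier results of these data known, so these shares describe the list and do not test it.

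**Figure D1:**
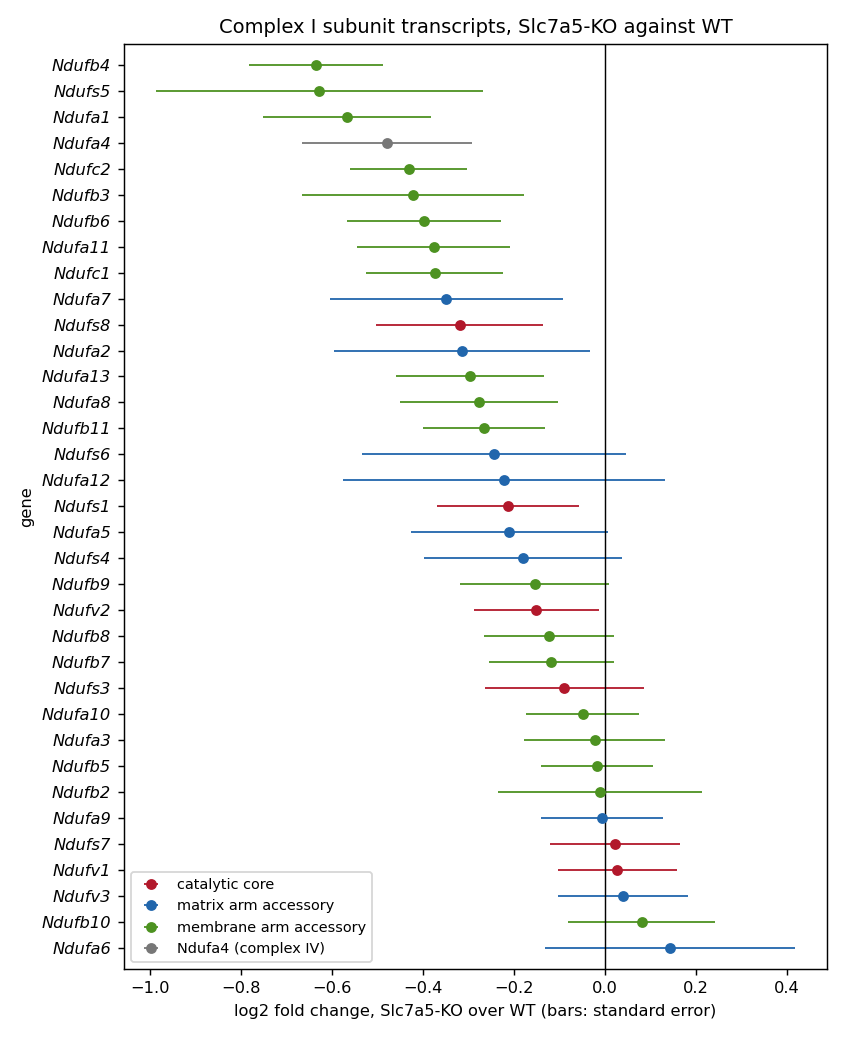
Log2 fold change of each of 35 of the 36 genes, Slc7a5-KO over WT, with bars of 1 standard error from edgeR and colours for the part of the complex. Ndufb4, Ndufs5 and Ndufa1 lie lowest at -0.63, -0.63 and -0.57, and 5 genes lie above 0, up to 0.14 for Ndufa6.

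The lowest p among the members belonged to Ndufb4, an accessory subunit of the distal membrane arm. Its level was 52.2, 59.9 and 58.4 CPM in WT replicates 1 to 3 and 36.7, 37.4 and 35.7 CPM in Slc7a5-KO replicates 1 to 3. All 3 Slc7a5-KO animals lay close together and below all 3 WT animals. The means were 56.9 ± 4.07 and 36.6 ± 0.862 CPM, a difference of -0.63 ± 0.15 (SE) on the log2 scale (edgeR adjusted p = 0.21). Leaving out any 1 animal gave values between -0.69 and -0.59. The authors' deposited table lists Ndufb4 with -0.64 before shrinkage (log2) and adjusted p = 0.000486. That table called 2 members, Ndufb4 and Ndufc2, where 0.9% of its genes with an adjusted p passed the threshold of 0.05. DESeq2 run here on the same counts called 1 member, Ndufb4 (adjusted p = 0.0166), and 0.339% of the 13583 genes given an adjusted p. The gene (ENSMUSG00000022820.3) lies on GRCm38 chromosome 16, 37647170 to 37654453, minus strand. A near-identical transcript stretch of 390 bases lies in Ndufb4c, which had at most 7 reads in any library.

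Ndufc2 and Ndufc1 encode small subunits that sit together in the membrane arm. Ndufc2 (ENSMUSG00000030647.8, chromosome 7, 97400003 to 97407802, plus strand) stood at 529.7, 619.8 and 642 CPM in WT and at 442, 439 and 449.6 CPM in Slc7a5-KO animals. The groups did not overlap, and the 3 Slc7a5-KO animals lay close together, with means of 597 ± 59.5 and 443 ± 5.66 CPM. On the log2 scale the fold change was -0.43 ± 0.13 (edgeR adjusted p = 0.52). For Ndufc2 the authors' deposited table lists -0.43 before shrinkage (log2) and adjusted p = 0.0148, and DESeq2 here gave an adjusted p of 0.059. Ndufc1 stood at 50.3, 55.3 and 51.2 CPM in WT and at 35.9, 42.9 and 42.4 CPM in Slc7a5-KO animals. The groups did not overlap for this gene either, with Slc7a5-KO replicate 1 lowest (log2 fold change -0.37 ± 0.15, edgeR adjusted p = 0.74).

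Ndufa1 (ENSMUSG00000016427.7, chromosome X, 37187588 to 37191163, minus strand), a subunit that anchors at the junction of the arms and is needed for assembly of the complex, was the fourth gene whose groups did not overlap. The values were 40.0, 50.1 and 38.8 CPM in WT replicates 1 to 3 and 24.6, 35.99 and 26.4 CPM in the Slc7a5-KO animals. Replicate 2 was the highest animal of both groups, and the highest Slc7a5-KO animal lay just below the lowest WT animal. This gave a fold change of -0.57 ± 0.18 on the log2 scale (edgeR adjusted p = 0.59). Without WT replicate 2, 3 members were lower at an unadjusted edgeR p under 0.05, namely Ndufb4 (-0.59), Ndufc2 (-0.40) and Ndufa1 (-0.44), against 1.83% of all genes.

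**Figure D2:**
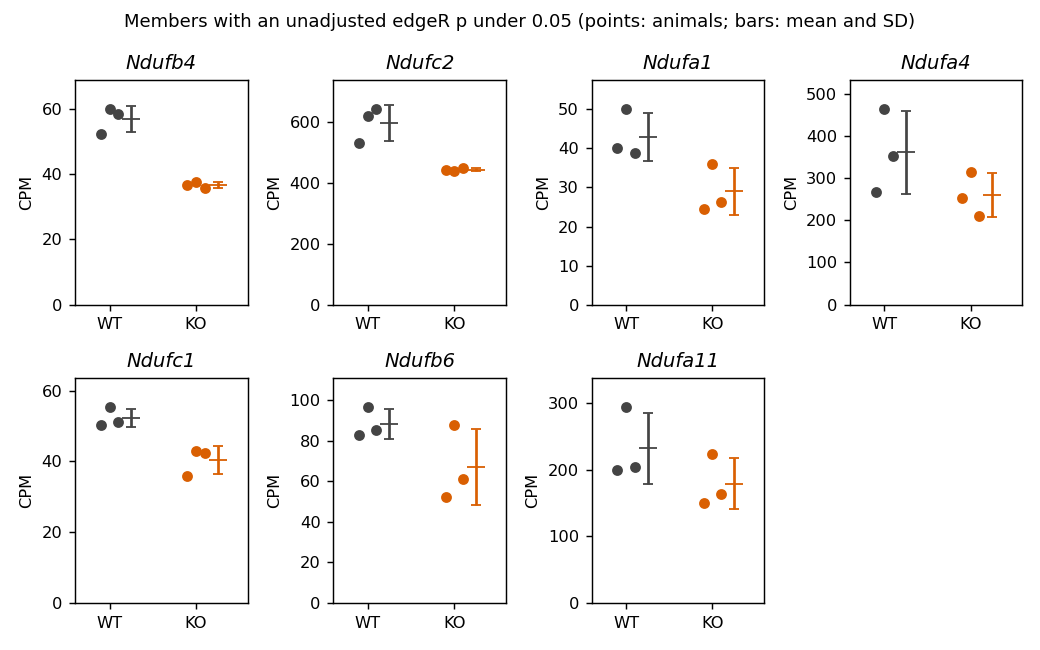
CPM (vertical axes, starting at 0) of the 7 members with an unadjusted edgeR p under 0.05, with 1 point per animal and the group mean and SD beside the points (n = 3). In Ndufb4, Ndufc2, Ndufa1 and Ndufc1 no Slc7a5-KO animal reaches the lowest WT animal, and in Ndufa4, Ndufb6 and Ndufa11 the groups overlap.

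In 3 further members at an unadjusted p under 0.05 the groups overlapped. Ndufb6, a subunit of the distal membrane arm, stood at 82.9, 96.4 and 85.2 CPM in WT and at 52.0, 87.8 and 61.0 CPM in Slc7a5-KO animals. Slc7a5-KO replicate 2 lay above WT replicates 1 and 3, a difference of -0.40 ± 0.17 (SE) on the log2 scale (edgeR adjusted p = 0.76). Leaving out Slc7a5-KO replicate 1 or 2 moved it to -0.24 or -0.65. Ndufa11, a membrane subunit at the contact with complex III in supercomplexes, stood at 199.9, 294 and 204 CPM in WT and at 151, 223 and 164 CPM in Slc7a5-KO animals. Here too Slc7a5-KO replicate 2 lay inside the WT range (log2 fold change -0.38 ± 0.17, edgeR adjusted p = 0.78), and without WT replicate 2 the value was -0.17.

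Promoters of the members were searched for short letter strings known from factors that bind respiratory chain promoters, on both strands, in windows from 250 bases before to 50 after the RefSeq start (GRCm38.p6), which 32 members have. The NRF1 letters CGCNTGCGC were in 8 of the 32 (25%), and in 13.6% of 12083 tested genes with a promoter and 6.25% of all 32851 windows. The YY1 letters AAGATGGCG were in 5 (15.6%), against 3.07% of tested genes and 1.4% of windows. The ETS letters CCGGAAG were in 4 (12.5%), against 17.5% and 8.86%. The share of all windows compares with that of the members' 34 windows, of which 26.5%, 14.7% and 11.8% held the NRF1, YY1 and ETS letters. The letters TCAAGGTCA, known for ERR receptors, and TGATGNAA, known for ATF4 and CEBP, were in 0 members, and in 0.331% and 2.77% of tested genes and 0.423% and 3.97% of windows. No pair of these letter strings is contained in another, and palindromic NRF1 matches count once per gene. Of the 7 members at an unadjusted p under 0.05, 4 held a match: NRF1 in Ndufb4 and Ndufa11, ETS in Ndufb6 and YY1 in Ndufc1. Of the other 25 members with a promoter, 12 held one.

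The upstream sequences of 4 of those 7 members are shown as examples of promoters with and without the NRF1 letters. They run 5′ to 3′ on the strand of the gene and end before the annotated transcript. Capitals mark NRF1 matches. Ndufb4 is chr16:37654454-37654618, minus strand, Ndufa11 is chr17:56717512-56717761, plus strand, Ndufc2 is chr7:97399753-97400002, plus strand, and Ndufa1 is chrX:37191239-37191488, minus strand, all from RefSeq on GRCm38.p6.
Ndufb4: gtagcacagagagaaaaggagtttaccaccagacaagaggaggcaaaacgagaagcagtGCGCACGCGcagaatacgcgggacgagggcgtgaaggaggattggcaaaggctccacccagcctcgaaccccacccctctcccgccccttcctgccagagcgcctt
Ndufa11: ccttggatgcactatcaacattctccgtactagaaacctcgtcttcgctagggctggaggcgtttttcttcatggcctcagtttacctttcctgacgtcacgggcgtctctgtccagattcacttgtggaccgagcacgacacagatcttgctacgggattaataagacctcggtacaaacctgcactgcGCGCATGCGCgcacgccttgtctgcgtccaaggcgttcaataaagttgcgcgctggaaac
Ndufc2: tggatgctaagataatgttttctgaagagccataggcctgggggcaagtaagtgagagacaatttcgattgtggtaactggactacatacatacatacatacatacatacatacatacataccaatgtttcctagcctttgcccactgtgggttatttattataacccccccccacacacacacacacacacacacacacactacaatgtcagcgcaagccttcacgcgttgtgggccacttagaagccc
Ndufa1: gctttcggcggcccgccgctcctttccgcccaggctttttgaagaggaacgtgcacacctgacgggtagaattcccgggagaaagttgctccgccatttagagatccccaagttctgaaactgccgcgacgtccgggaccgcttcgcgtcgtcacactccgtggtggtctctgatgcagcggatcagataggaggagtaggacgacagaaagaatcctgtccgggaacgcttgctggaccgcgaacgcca
Ndufb4 has 3 matches within 250 bases upstream, 1 of them in the stretch shown, and Ndufa11 has a palindrome read as a match on both strands. Ndufc2, which has the highest level per kb, and Ndufa1 held none of the 5 letter strings searched. A match describes letters in a window and is not a binding site measured here.

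Ndufa4, the complex IV subunit, stood at 267, 463 and 351 CPM in WT and at 252, 314 and 210.1 CPM in Slc7a5-KO animals. WT replicate 1 lay below Slc7a5-KO replicate 2, so the groups overlapped (log2 fold change -0.48 ± 0.19, edgeR adjusted p = 0.74). The value was -0.25 without WT replicate 2, -0.30 with offsets for exonic length and GC content and -0.23 with offsets for principal transcript length and GC content. Leaving Ndufa4 out of the list left 35 members with a median of -0.21. Ndufs5, a twin-cysteine subunit on the intermembrane face of the membrane arm, stood at 5.45, 8.73 and 6.63 CPM in WT and at 3.96, 6.39 and 3.01 CPM in Slc7a5-KO animals. It had the second lowest fold change (-0.63) but the largest standard error of all members, 0.36, and its groups overlapped.

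The 7 nuclear catalytic core genes had a median of -0.09, with 5 below 0 and 0 at an unadjusted p under 0.05. Among them, Ndufv1 binds NADH and the flavin. It stood at 144, 121 and 120.0 CPM in WT and at 119, 136 and 139 CPM in Slc7a5-KO animals, with overlapping groups (log2 fold change 0.03 ± 0.13). Ndufv2 carries the iron-sulfur cluster next to the flavin. It stood at 441, 554.5 and 411 CPM in WT and at 412, 455 and 401 CPM in Slc7a5-KO animals (log2 fold change -0.15 ± 0.14). WT replicate 2 alone stood well above the rest, and without it the value was -0.0086. Ndufs1, the largest subunit, carries further clusters of the electron path. It stood at 123, 101 and 85.0 CPM in WT and at 104, 84.4 and 78.2 CPM in Slc7a5-KO animals, again with overlap (log2 fold change -0.21 ± 0.16), and without WT replicate 1 the value was -0.06.

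Further core genes build the part of the matrix arm that hands electrons to ubiquinone. Ndufs8, which carries a pair of clusters, had the lowest fold change of the core, at -0.32 ± 0.18. It stood at 252, 385 and 292 CPM in WT and at 215, 324.5 and 206 CPM in Slc7a5-KO animals, so Slc7a5-KO replicate 2 exceeded WT replicates 1 and 3. Without Slc7a5-KO replicate 2 the value was -0.56, and without WT replicate 2 it was -0.13, where Ndufs1 lay lower at -0.23. Ndufs7 carries the last cluster before ubiquinone. It stood at 222.5, 262 and 179.6 CPM in WT and at 228, 246 and 201 CPM in Slc7a5-KO animals, and the WT range enclosed the other (log2 fold change 0.02 ± 0.14). Ndufs3, a structural core subunit of the same region, stood at 35.0, 37.3 and 29.8 CPM in WT and at 31.0, 37.0 and 27.9 CPM in Slc7a5-KO animals, also with overlap (log2 fold change -0.09 ± 0.17). With standard errors of 0.13 to 0.18, differences of the size seen in these core genes were not detectable at this number of animals.

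The 3 members with the highest fold changes were accessory genes whose groups overlapped. Ndufa6, a matrix arm subunit that binds the mitochondrial acyl carrier protein, stood at 82.6, 136 and 85.9 CPM in WT and at 98.8, 157 and 79.8 CPM in Slc7a5-KO animals (log2 fold change 0.14 ± 0.28). Replicate 2 was the highest animal in both groups, and the sign turned without Slc7a5-KO replicate 2 (-0.19). Ndufb10, a membrane arm subunit on the intermembrane side, stood at 201, 294 and 232 CPM in WT and at 211, 318 and 240.3 CPM in Slc7a5-KO animals (log2 fold change 0.08 ± 0.16). It had the same order of animals within each group, and its sign also turned without Slc7a5-KO replicate 2 (-0.11) or without WT replicate 1 (-0.04). Ndufv3, an accessory subunit bound to the flavin end of the matrix arm, stood at 59.5, 62.5 and 50.3 CPM in WT and at 60.3, 59.2 and 57.6 CPM in Slc7a5-KO animals. The 3 Slc7a5-KO values lay within the WT range (log2 fold change 0.04 ± 0.14).

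Each of 18 further members had a log2 fold change below 0 that missed an unadjusted p of 0.05. All members above 0 and all at that p were taken out for the descriptions above, so both traits follow from the selection. The 18 ran from -0.42 for Ndufb3, a membrane arm subunit, to -0.01 for Ndufa9, a matrix arm subunit that holds NADPH. In 12 of the 18 the fold change was smaller than its standard error. The sign turned without at least 1 animal in 9 of the 18, among them Ndufa2 (-0.31 with all animals, 0.086 without WT replicate 2), Ndufa12 (-0.22 and 0.083) and Ndufs4 (-0.18 and 0.09). The 11 that belong to the membrane arm lay between -0.42 and -0.01, and the 7 that belong to the matrix arm between -0.35 (Ndufa7) and -0.01.

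Divided by letter, the 11 s and v genes had a median of -0.15, with 8 below 0, and the 25 a, b and c genes a median of -0.26, with 23 below 0. All 7 members at an unadjusted p under 0.05 were a, b or c genes. For each animal the mean deviation of each gene's log2 CPM from its own mean over 6 animals was taken, and that of the a, b and c genes was subtracted from that of the s and v genes. This difference was 0.078, -0.12 and -0.07 in WT replicates 1 to 3 and 0.012, -0.0044 and 0.10 in the Slc7a5-KO animals. The groups overlapped, with means of -0.04 ± 0.10 and 0.04 ± 0.06 (SD) and a gap between the groups of 0.073. With the 7 textbook core genes against the other 29 members, the medians were -0.09 and -0.24. The per-animal difference was then 0.13, -0.17 and -0.15 in WT and 0.12, -0.01 and 0.088 in the Slc7a5-KO animals, which also overlap.

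By place in the complex, the 19 membrane arm accessory genes had the lowest median, -0.28, with 18 below 0. They held 6 of the 7 members at an unadjusted p under 0.05, the other being Ndufa4, and all 4 whose groups did not overlap. The 9 matrix arm accessory genes had a median of -0.21, with 7 below 0 and 0 at that p. Without WT replicate 2 the membrane arm median was -0.17 and the matrix arm median 0.083, so the sign of the matrix arm median rested on that animal.

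Per length of the principal transcript the levels spread widely within the complex. Ndufc2 was highest, at 762 CPM per kb averaged over the 6 animals, followed by Ndufa4 at 507 and Ndufa3 at 488 CPM per kb. The median of the 36 was 93.6 CPM per kb, and the core genes ran from 31.5 (Ndufs3) to 278 CPM per kb (Ndufs8). Lowest were Ndufb2 at 4.49 and Ndufs5 at 8.38 CPM per kb. Ndufb2 has a principal transcript of 4371 bases in the annotation, which lowers its value per kb, and overlaps another gene on its strand, as do Ndufb8 and Ndufb9. Ndufs5, Ndufb4, Ndufs3 and Ndufa12 share a near-identical stretch (97% over at least 150 bases) with a copy elsewhere, and these copies had at most 17, 7, 19 and 22 reads in a library, so levels of these members are less certain. The other 29 members had neither.

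Transcript length went with the division by role. The principal transcripts of the core genes had a median of 1623 bases and those of the other members 732 bases. The 21 members under 1000 bases had a median log2 fold change of -0.28, and the 15 of 1000 bases or more one of -0.09. Among the members outside the core, the 20 under 1000 bases had a median of -0.29 and the 9 of 1000 bases or more one of -0.05, which is nearer 0 than the core's -0.09. All 1308 tested genes with a principal transcript under 1000 bases had a median of -0.05. Their median deviation in WT replicate 2 was 0.22, where that of all genes was 0.0082. With offsets for principal transcript length and GC content in the fit, added after the values were seen, the members' median was -0.19 with 32 below 0. In that fit the core median lay 0.14 above the median of the other members, and with offsets for exonic length and GC content 0.18, against 0.15 with no offsets.

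**Figure D3:**
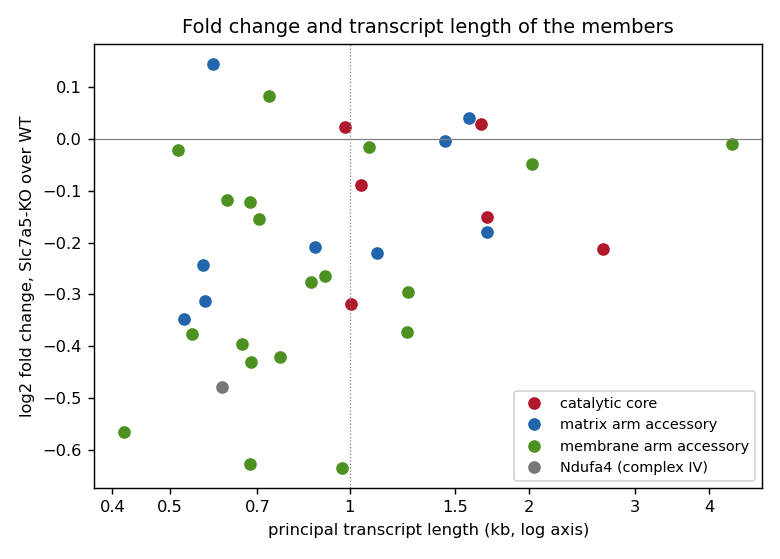
Log2 fold change (Slc7a5-KO over WT) of each of 35 of the 36 genes against the length of its principal transcript in kb on a log axis, with a dotted line at 1 kb and colours for the part of the complex. Ndufb4, Ndufs5 and Ndufa1, under 1 kb, lie at -0.57 or lower, and the accessory genes Ndufa9, Ndufv3 and Ndufa10, above 1 kb, lie between -0.05 and 0.04. Other genes lie the other way for their length. Ndufc1 (-0.37) and Ndufa13 (-0.30) are above 1 kb, and Ndufa6 (0.14) and Ndufb10 (0.08) are under 1 kb.

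The animals differed within each group. WT replicate 2 was the highest of the 6 animals in 26 of 36 members. Slc7a5-KO replicate 3 was the lowest in 17 members and Slc7a5-KO replicate 1 in 9, and each of these was the highest in 0 members. Summed over the 36 genes, the level was 4919, 6313 and 5128 CPM in WT replicates 1 to 3 and 4541, 5388 and 4378 CPM in Slc7a5-KO replicates 1 to 3. Slc7a5-KO replicate 2 thus lay above WT replicates 1 and 3, and the groups overlapped. The median deviation from each gene's mean was -0.00029, 0.34 and 0.0096 in the WT animals and -0.18, 0.077 and -0.21 in the Slc7a5-KO animals.

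**Figure D4:**
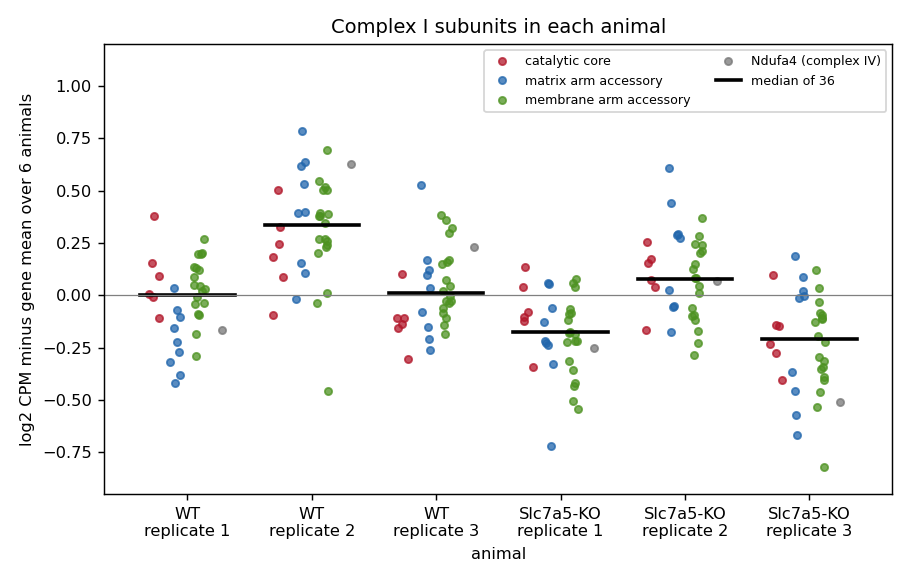
Deviation of log2 CPM from the gene's mean over 6 animals (vertical axis) for each of 35 of the 36 genes in each animal, with colours for the part of the complex and a black line at the median of the 36. The medians of WT replicate 2 (0.34) and Slc7a5-KO replicates 1 and 3 (-0.18 and -0.21) stand away from 0, and those of WT replicates 1 and 3 lie at -0.00029 and 0.0096.

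Leaving out 1 animal moved the members' median and the number at an unadjusted edgeR p under 0.05. Without WT replicates 1, 2 and 3 in turn, the median was -0.27, -0.05 and -0.25 and the number 12, 3 and 8, against 3.69%, 1.83% and 1.88% of all genes lower at that p. Without Slc7a5-KO replicates 1, 2 and 3 it was -0.15, -0.27 and -0.13 and the number 3, 13 and 4, against 4.13%, 3.09% and 1.72% of all genes. Without WT replicate 2, 26 of 36 members lay below 0, 25 of them among the 31 below 0 with all animals, and the number below 0 was 27 to 33 without any other animal. The sign turned without at least 1 animal in 16 of the 36 members. The edgeR adjusted p of every member stayed above 0.05 in all of these fits.

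Sex was not balanced between the groups, since WT replicate 2 was the only WT female and Slc7a5-KO replicate 2 the only Slc7a5-KO male. Within females the members' median was -0.49, and within males it was 0.055 with 13 of 36 below 0. Each of these compares with 1 animal on one side, so sex and that animal cannot be told apart. With a term for sex in the fit the median was -0.22, with 29 of 36 below 0.

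Markers of granule neurons and Purkinje cells, the main neurons here, also had medians below 0, and in bulk tissue fewer cells of a type and less RNA per cell cannot be told apart. All 8 Purkinje cell markers lay below 0, with a median of -0.41 and summed levels of 5504 to 6740 CPM in WT and 3851 to 5714 CPM in Slc7a5-KO animals. The 8 granule neuron markers lay below 0 as well, with a median of -0.22 and sums of 3786 to 5559 and 3121 to 4986 CPM. Leaving out 1 animal moved the granule neuron median between -0.08 (without WT replicate 2, with 6 of 8 below 0) and -0.48 (without Slc7a5-KO replicate 1), and 5 of 8 lay below 0 without Slc7a5-KO replicate 2. The Purkinje cell median ran from -0.53 without Slc7a5-KO replicate 1 to -0.26 without Slc7a5-KO replicate 2, with 6 of 8 below 0 in the latter. No marker of either list was at 0 in any library. For both lists WT replicate 2 was the highest WT animal, as for complex I. Slc7a5-KO replicate 2 had the lowest sums (3851 and 3121 CPM) but the highest complex I sum of its group. The markers' part in the complex I values was not tested.

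Choroid plexus markers, from tissue that can be carried along in dissection, had a median of -0.79, with 8 of 8 below 0 and all 8 lowest in Slc7a5-KO replicate 2, where their sum was 275 CPM against 3445 to 7837 CPM in the other animals. Astrocyte, oligodendrocyte, endothelial, microglial and red blood cell markers had medians of -0.14, 0.03, 0.17, 0.06 and 0.02. Red blood cell markers summed to 355 CPM in WT replicate 2 and to 107 to 231 CPM elsewhere. Forebrain and muscle markers were low, with sums of 16.8 to 26.4 and 5.21 to 11.4 CPM, and had medians of 0.83 (3 of 4 above 0) and 0.45 (2 of 3 above 0). Without Slc7a5-KO replicate 2 these medians were 0.37 and -0.10, and that of the choroid plexus markers was -0.27. The oligodendrocyte, microglial and red blood cell medians changed sign without at least 1 animal. These values, too, stand beside the complex I result and their part in it was not tested.

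Other genes of complex I, from lists drawn up by role, are given here as lists, and their difference from the members was not tested. Of 6 mitochondrially encoded subunits tested, 2 lay below 0, with a median of 0.05 and 0 at an unadjusted p under 0.05. With offsets for exonic length and GC content in the fit that median was 0.27 with 0 of 6 below 0, and without any 1 animal it ran from 0.00013 to 0.12. These genes, which code for the proton-pumping core of the membrane arm, summed to 31070 to 36180 CPM in WT and 32690 to 35710 CPM in Slc7a5-KO animals. The smallest p was that of mt-Nd3, at 3.10 ± 1.17 CPM in WT and 5.53 ± 0.772 CPM in Slc7a5-KO animals (log2 fold change 0.83 ± 0.40, edgeR adjusted p = 0.81), followed by mt-Nd2 at 5096 ± 429.8 and 5411 ± 367 CPM (0.09 ± 0.14). Of 18 assembly factors, proteins that build the complex but do not stay in it, 11 lay below 0, with a median of -0.03. Tmem70, which helps build the membrane arm and ATP synthase, stood at 75.2 ± 11.0 and 54.6 ± 7.04 CPM (-0.46 ± 0.15, edgeR adjusted p = 0.59). Tmem126b, of the assembly complex for the membrane arm, stood at 20.3 ± 2.92 and 13.7 ± 1.78 CPM (-0.57 ± 0.22, edgeR adjusted p = 0.70). In all, 3 assembly factors were lower and 1 higher at an unadjusted edgeR p under 0.05, against 2.77% and 3.45% of all genes. Ndufab1, the acyl carrier protein bound by Ndufa6 and outside the name rule, had -0.20 ± 0.23.

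Subunits of the other respiratory complexes lay below 0 about as far as those of complex I. The medians were -0.14 in complex II (4 of 4 below 0), -0.20 in complex III (6 of 9), -0.18 in complex IV (8 of 10) and -0.15 in complex V (10 of 14). Together 28 of 37 lay below 0, with a median of -0.18, and the difference from complex I was not tested. Their median without WT replicate 2 was -0.04, near that of complex I (-0.05). The smallest p were those of the ATP synthase subunits Atp5h, at 92.7 ± 10.4 and 63.2 ± 13.5 CPM (-0.55 ± 0.16, edgeR adjusted p = 0.48), and Atp5e, at 328 ± 59.0 and 239.5 ± 21.3 CPM (-0.45 ± 0.14, edgeR adjusted p = 0.55). Atp5d, next by p and named after its values were seen, was higher, without overlap, at 119 ± 12.3 and 158 ± 10.7 CPM (0.41 ± 0.13, edgeR adjusted p = 0.59). At an unadjusted edgeR p under 0.05, 4 of the 37 were lower and 1 higher, against 2.77% and 3.45% of all genes. The groups separated lower in 6 and higher in 1, against 5.54% and 5.93% of all genes. Mitochondrial ribosomal proteins, which translate the mitochondrially encoded subunits, had a median of -0.03, with 42 of 77 below 0.

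**Figure D5:**
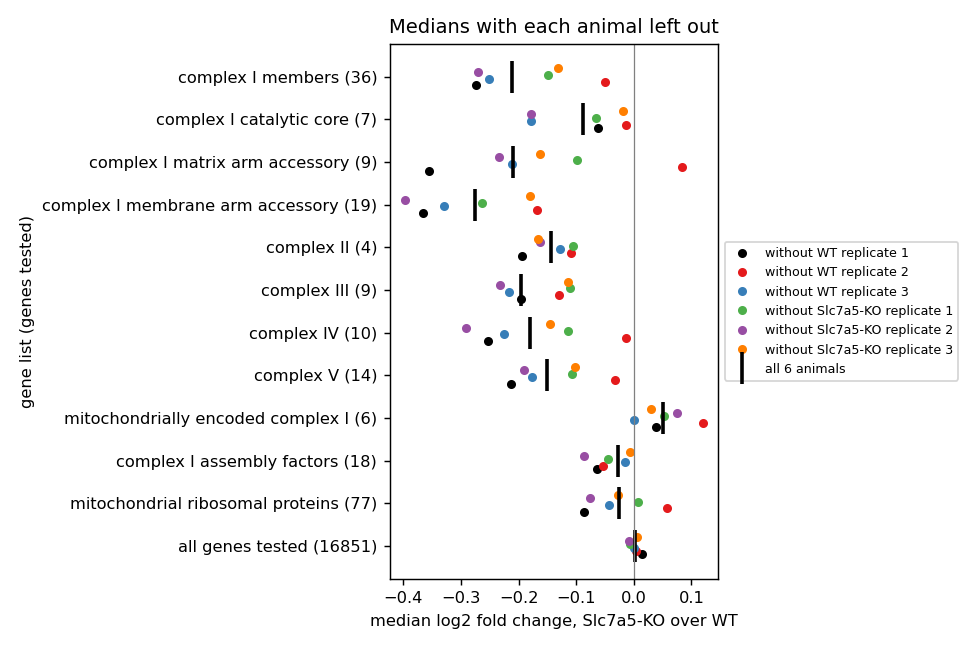
Median log2 fold change (Slc7a5-KO over WT, horizontal axis) of each gene list with all 6 animals (black bar) and with 1 animal left out (coloured points), with the number of genes tested in brackets. Red points, without WT replicate 2, lie nearest to 0 or above it in most of the lists of complexes I to V, and the medians of all genes run from -0.0077 to 0.0138.

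Among 16 regulators of respiratory chain genes, 11 lay below 0 with a median of -0.03. Gabpa, the DNA-binding subunit of an ETS factor known as NRF2 in this setting, whose ETS letters were searched above, stood at 27.9, 36.3 and 37.1 CPM in WT and at 26.3, 21.7 and 18.8 CPM in Slc7a5-KO animals, without overlap (log2 fold change -0.59 ± 0.19, edgeR adjusted p = 0.59). Yy1, a zinc finger factor whose letters 5 member promoters held, was also without overlap. It stood at 29.3, 30.2 and 24.4 CPM in WT and at 22.1, 19.3 and 16.5 CPM in Slc7a5-KO animals (log2 fold change -0.53 ± 0.19, edgeR adjusted p = 0.67). Among members at an unadjusted edgeR p under 0.05, only Ndufb6 held the ETS letters and only Ndufc1 the YY1 letters. A link between these factors and the members was not tested. In 2 regulators the groups separated lower and in 2 higher, against 5.54% and 5.93% of all genes. The latter 2, Tfb2m and Tfb1m, were named after their values were seen. Tfb2m, a mitochondrial transcription factor, stood at 1.41, 0.433 and 1.09 CPM in WT and at 3.25, 1.42 and 3.82 CPM in Slc7a5-KO animals (1.52 ± 0.67 on the log2 scale, edgeR adjusted p = 0.76). Tfb1m, which methylates mitochondrial ribosomal RNA, stood at 6.84, 4.87 and 7.68 CPM in WT and at 9.04, 7.998 and 10.7 CPM in Slc7a5-KO animals (0.51 ± 0.30, edgeR adjusted p = 0.86). Nrf1, a factor of many respiratory chain promoters, and Ppargc1a, a coactivator of mitochondrial genes, were chosen after their values were seen and had log2 fold changes of -0.19 ± 0.23 and -0.01 ± 0.13.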

How the data were processed

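Read counts per gene were deposited by the authors as 1 table per animal, not normalised, and per the submitters' processing notes came from STAR 2.5.4 on GRCm38 (mm10). The reverse-strand count was used, which held 94.8% to 95.8% of the stranded reads. Reads of no gene or several genes (19.5% to 22.2%) were left out, and multimapping reads are listed as 0, so genes with close copies are uncertain. The authors' deposited table gives, per the file headers, log2 fold changes, a mean normalised signal, the Wald score, and p-values raw and adjusted. DESeq2 1.10.1 in R 3.2.4 is named in the submitters' processing notes, with no design formula recorded there. Symbols matched 46488 of 46983 identifiers.

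The filter filterByExpr, at a minimum count of 10 and minimum total of 15, kept 16851 genes. After TMM scaling, edgeR 4.0.16 in R 4.3.3 was run (robust quasi-likelihood, 2-sided), with Benjamini-Hochberg adjustment over all genes and a false discovery rate of 0.05. The standard error is the log2 fold change divided by the root of the F statistic, and the prior count for log2 CPM was 2. Data were simulated for Slc7a5-KO against WT, with changes given to genes above a mean CPM of 5, and 16208 genes were tested. There edgeR recovered 13.4% of 1.5-fold, 79.1% of 2-fold and 98.5% of 4-fold changes, with 7 false calls. Alternatives were other scalings, filters, tests (DESeq2 1.42.0, limma 3.58.1 with voom), a replicate block, a sex term, length and GC offsets, and each animal left out. Lists are described by counts and medians, with no test. Over all genes, deviations from the group means correlated at -0.038, -0.059 and -0.027 between animals of the same replicate number. With 3 animals per group, these cannot decide whether replicate numbers pair the animals.

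The members and gene lists were chosen with earlier results of these data known. Values per animal are given for core genes, for members at an unadjusted p under 0.05 and for the 3 largest fold changes each way. Of the 36 members, 35 are shown one by one, and the values of 1 are not reported here other than in sums, counts and medians. Of the mitochondrially encoded subunits, the assembly factors, regulators and complexes II to V together, the 2 genes of smallest p in each are named. Atp5d, Tfb2m, Tfb1m, Nrf1 and Ppargc1a were added after their values were seen. Ndufab1, outside the name rule, is also named. Marker lists and mitochondrial ribosomal proteins are given as lists only. Transcript lengths come from GENCODE M21 and promoters from RefSeq (GRCm38.p6).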

Additional observations from a re-analysis of the deposited data

Results flagged for a closer look

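In 2 members the effect of the group differed between the sexes in a fit with a sex by group term, added after the values were seen. For Ndufa6 the interaction was 1.50 on the log2 scale (edgeR adjusted p = 0.0199), with fold changes of -0.61 in females and 0.90 in males. For Ndufs8 it was 1.13 (edgeR adjusted p = 0.047), with -0.87 in females and 0.26 in males. Over all genes 39 of 16851 passed this test. At an unadjusted p under 0.05 there were 16 of 36 members and 1304 of all genes. The only WT female and the only Slc7a5-KO male, both replicate 2, were the highest animals of their groups for both genes, so sex and these animals cannot be told apart.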

How the results depend on the processing

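With 3 animals per group, changes near 1.5-fold were mostly below what the test could call in the simulated data (13.4% recovered). The biological coefficient of variation, 31.6%, was fitted over all genes together and is not that of the members. The median of the members stayed below 0 under every alternative run, from -0.27 without WT replicate 1 to -0.05 without WT replicate 2, and was -0.18 with plain library size, where the median of all genes was 0.031 and 26 members lay below 0. With the replicate block it was -0.20 (30 members below 0), with 6 genes called higher and 0 lower, and no member call changed. Genes called higher, 8 in all, were 40 by DESeq2, 55 with no filter and 3 to 20 with 1 animal left out. Genes called lower, 0 by edgeR with 466 at an unadjusted p under 0.05, were 6 by DESeq2, 16 with no filter, 5 with a sex term and 0 to 3 with 1 animal left out. With 1 animal left out, the s and v median ran from -0.18 to -0.014, its difference from the a, b and c median (0.11) from 0.052 to 0.30, and the members at an unadjusted p under 0.05 from 3 to 13. The sign turned in 16 of 36 members without at least 1 animal, and in 7 without WT replicate 2. Of those described by animal, with 1 animal left out, Ndufa6 ran from -0.186 to 0.416, Ndufb10 from -0.108 to 0.247, Ndufs3 from -0.21 to 0.0012, Ndufs7 from -0.11 to 0.17, Ndufv1 from -0.022 to 0.12 and Ndufv3 from -0.051 to 0.11. With offsets for exonic length and GC, Ndufs7, Ndufv1 and Ndufv3 were -0.061, -0.062 and -0.016, and with principal transcript length -0.029, -0.064 and -0.017. The causes were not tested.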
